A study of Mus musculus with 12 samples.

Results

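The genes described here are those of potassium channels and of the proteins that assemble with them, taken by name. Every non-control probe of the array whose gene symbol begins with Kcn was kept, which gave 181 of 56605 probes, for 98 genes. The rule uses gene names and no measured value, although it was set with earlier results of these data known. For 156 of the 181 probes the accession was found in RefSeq, and 0 of these carried a different name there. Messenger RNA was measured in the hearts of 12 mice, all male, of strain C57BL6/J and aged 5 months, with 1 array per mouse. Control mice (C) received neither drug. Control mice with pargyline (C + P) received pargyline, an inhibitor of the mitochondrial enzyme monoamine oxidase, at 50 mg/kg per day for 12 weeks. Diabetic mice (D) had received streptozotocin, a toxin of the insulin-producing beta cells, at 50 mg/kg per day on 5 days, with blood glucose of at least 17 mM as the criterion of diabetes. Diabetic mice with pargyline (D + P) received both drugs at these doses. Each group held 3 mice, and streptozotocin itself was given only to the diabetic groups, so that the drug and the diabetes it causes cannot be told apart. Tissue was extracted as a whole, and which chambers it held is not given in the sources used here. In such tissue fewer cells of a type and less RNA per cell of that type cannot be told apart.

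Potassium currents end the action potential of the heart. Pore-forming subunits of the Kv family open on depolarisation and carry the transient outward and the delayed rectifier currents, whereas the Kir family sets the resting potential and the tandem-pore K2P family carries background current. Ancillary subunits such as the KChIP and KCNE proteins alter the traffic and the gating of the pores. In mouse ventricle repolarisation is fast and rests mainly on transient outward and slowly inactivating Kv currents, and a loss of the transient outward current is a known feature of diabetic and failing hearts.

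Signal well above background, as the scanner software calls it, was found for 47 to 57 Kcn probes per array, and for 23556 to 29231 of the 59305 non-control spots, with D replicate 1 lowest and C replicate 2 highest for all spots. Saturated spots numbered 0. D replicate 1 also lay farthest from its group, with a median absolute deviation of 0.291 on the log2 scale against 0.102 on C replicate 2. All arrays without pargyline were on 1 slide and all with it on another, so that slide and pargyline cannot be told apart. The non-diabetic arrays lay in 1 row of each slide and the diabetic arrays in the other, so that row and diabetes cannot be told apart. The number of arrays, 3 per group, limits the precision. With 3 arrays a group the smallest two-sided p of an exact permutation test is 0.1, so that probes were tested with limma, whose estimate of the spread draws on all groups and on all probes.

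Most Kcn probes gave no firm signal in heart. On all 12 arrays 42 probes, for 33 genes, were well above background, which is 23.2% of the 181, beside 32.3% of all 56605 probes. A further 10 probes were so on 6 to 11 arrays, 27 on 1 to 5 arrays, and 102 on none. For 41 genes at least 1 probe was well above background on 6 or more arrays, and for 43 genes no probe was on any array. The filter for testing, positive and significant signal on 50% or more of each group's arrays, was passed by 74 probes for 55 genes, which is 40.9% of the Kcn probes beside 54.5% of all probes. A probe below background here says only that these arrays did not measure it.

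**Figure D1:**
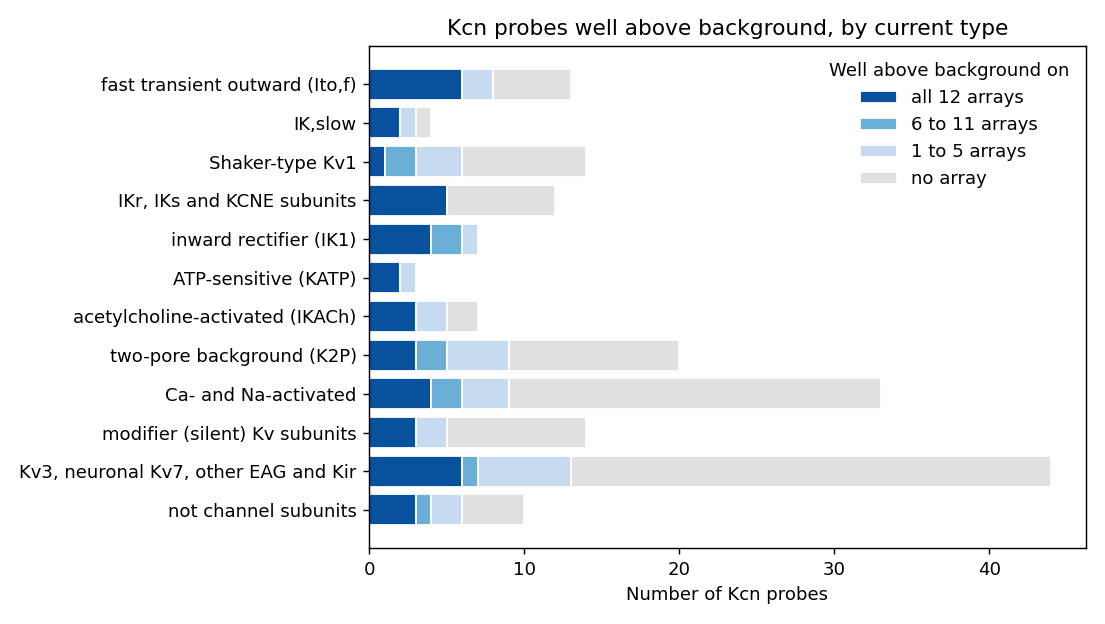
Number of Kcn probes (horizontal axis) for each current type, with bar colours for the number of arrays, of 12, on which a probe was well above background. The IK1 and KATP bars hold no probe that was below background on every array, whereas 24 of the 33 probes for calcium- and sodium-activated channels were.

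The genes of the currents that repolarise mouse ventricle were mostly measured. For the fast transient outward current (Ito,f) 6 of 7 genes were well above background on all 12 arrays: the pores *Kcnd1*, *Kcnd2* and *Kcnd3* and the KChIP genes *Kcnip1*, *Kcnip2* and *Kcnip3*, with *Kcnip4* on none. *Kcna5*, a pore of the slowly inactivating current IK,slow, was so on all 12 arrays, and *Kcnb2* on none. Of the 7 genes for the rapid and slow delayed rectifiers (IKr, IKs) and their KCNE subunits, *Kcnh2*, *Kcnq1* and *Kcne1* were so on all 12, whereas *Kcne1l*, *Kcne2*, *Kcne3* and *Kcne4* were on none. All 4 inward rectifier (IK1) genes were measured, *Kcnj2* and *Kcnj12* on 12 arrays, *Kcnj14* on 9 and *Kcnj4* on 8.

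Both pores of the ATP-sensitive current (KATP), *Kcnj8* and *Kcnj11*, were well above background on all 12 arrays. The acetylcholine-activated current (IKACh) had *Kcnj3*, *Kcnj5* and *Kcnj9* on all 12, and *Kcnj6* on none. Among K2P genes *Kcnk3*, *Kcnk4* and *Kcnk6* were on 12 arrays, *Kcnk2* on 8 and *Kcnk13* on 6, and 6 of 14 genes were on none. The calcium- and sodium-activated group had *Kcnma1*, *Kcnn1* and *Kcnn2* on 12 arrays and *Kcnt2* on 10, and none of its *Kcnmb* genes, the ancillary subunits of the large-conductance channel, on any. Of the Shaker-type Kv1 genes and their beta subunits *Kcna7* was on 12 arrays, *Kcna6* on 11 and *Kcna1* on 8. *Kcna4*, the pore of the slow transient outward current, was well above background on 0 of 12.

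Diabetic and non-diabetic hearts were compared without pargyline (D against C), with it (D + P against C + P), and by the mean of both differences, which uses all 12 arrays and in which an additive slide effect cancels. In the averaged comparison 1 of the 74 Kcn probes passed an adjusted p of 0.05 in limma, where 0.107% of all 30857 tested probes passed. This probe was that of *Kcnip2*. For D against C 0 of 74 passed, beside 0.00648% of all probes, and for D + P against C + P 0 of 74 passed, beside 0.0454%. The methods' t-test also called 0 Kcn probes in either pair of groups, both with the Bonferroni correction that the methods name and with Benjamini-Hochberg adjustment. At an unadjusted p under 0.05 it called 10 of 74 for D against C (13.5%, all probes 11.4%) and 4 for D + P against C + P (5.41%, all probes 6.55%).

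At an unadjusted p under 0.05 in limma the Kcn probes stood near the share of all probes. For D against C 5 were higher and 5 lower in D, each 6.76% of 74, where the shares of all probes were 5.13% and 5.66%. For D + P against C + P 4 were higher (5.41%, all probes 3.67%) and 3 lower (4.05%, all probes 3.79%). In the averaged comparison 7 were higher in the diabetic groups (9.46%, all probes 5.93%) and 3 lower (4.05%, all probes 5.46%). Groups that did not overlap were found for 20 Kcn probes in D against C (27.0%, all probes 22.3%), for 8 in D + P against C + P (10.8%, all probes 13.9%) and for 5 in both at once in the same direction (6.76%, all probes 2.5%). The median difference in the averaged comparison was 0.03 over the 74 Kcn probes and -0.01 over all tested probes, on the log2 scale, with 54.1% and 48.5% of the probes higher in the diabetic groups.

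**Figure D2:**
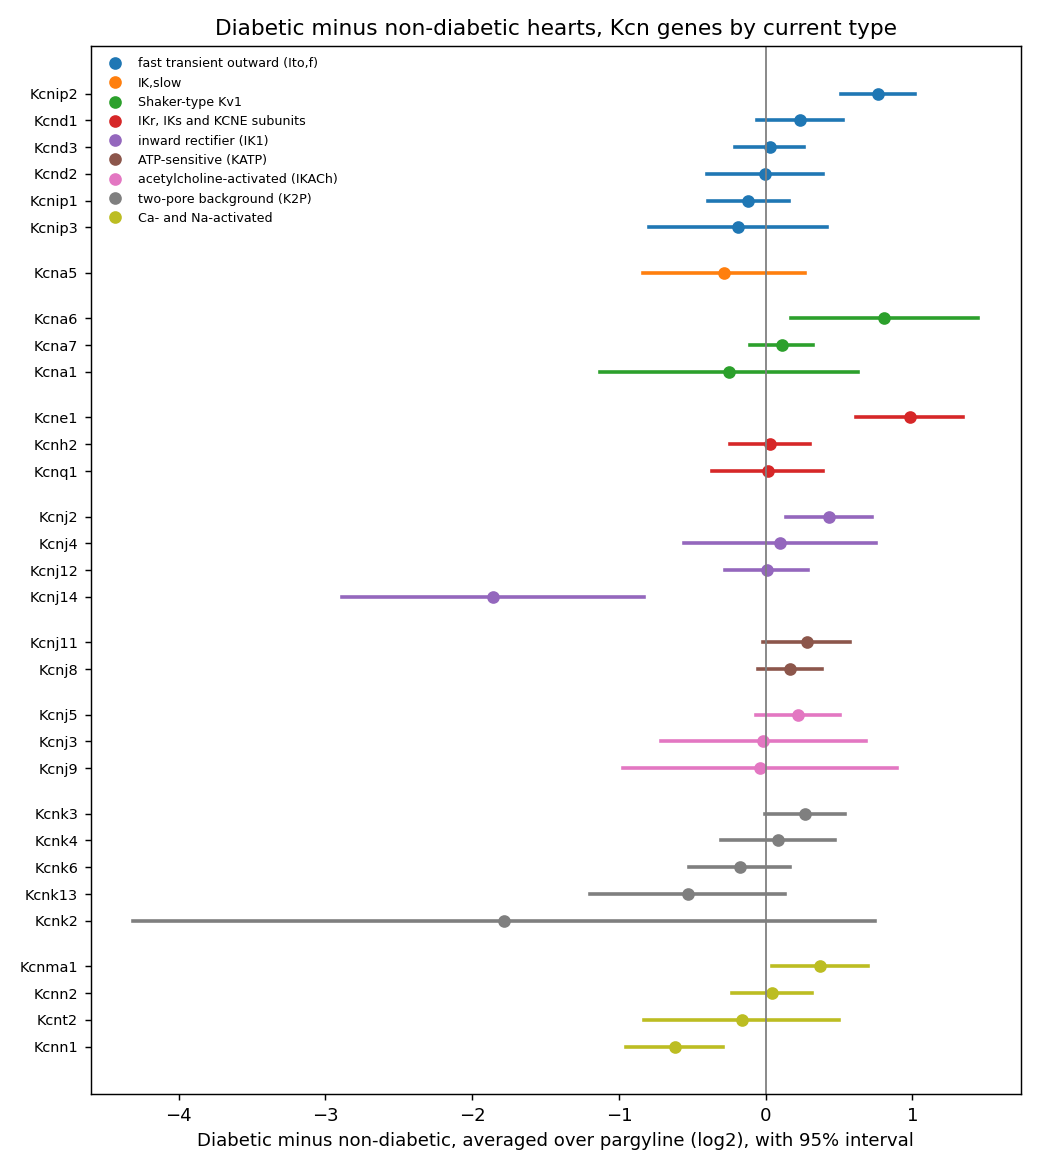
Difference between diabetic and non-diabetic hearts averaged over pargyline, on the log2 scale (horizontal axis), for the brightest probes of genes of the cardiac current types that were well above background on at least 6 arrays; points are limma estimates and lines their 95% intervals. The intervals of *Kcnip2* (0.77), *Kcne1* (0.98), *Kcna6* (0.81), *Kcnj2* (0.43), *Kcnma1* (0.37), *Kcnj14* (-1.86) and *Kcnn1* (-0.62) leave out 0, and the pores *Kcnd2*, *Kcnd3*, *Kcnq1*, *Kcnh2* and *Kcnj12* lie within 0.03 of it.

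Of the Ito,f genes, *Kcnip2* rose in the diabetic hearts. It encodes KChIP2, the calcium-binding subunit that brings Kv4 pores to the membrane and on which the fast transient outward current of mouse ventricle depends. Its probe lies at chr19:45868494-45868553 (mm9, minus strand), and its place within the transcript is not given in the sources used here. Normalised log2 signals were 6.52, 6.58 and 6.59 in C and 7.31, 7.37 and 7.19 in D. With pargyline they were 6.68, 6.28 and 6.18 in C + P and 7.07, 7.16 and 7.33 in D + P. Each of the 6 diabetic hearts stood above all 6 non-diabetic hearts. The means were 6.57 ± 0.04 for C and 7.29 ± 0.09 for D, and with pargyline 6.38 ± 0.27 for C + P and 7.19 ± 0.13 for D + P (SD, n = 3 each).

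The averaged difference of *Kcnip2* was 0.77 on the log2 scale (SE 0.11, 95% interval 0.52 to 1.02), a 1.7-fold higher signal (1.43 to 2.03), with a limma adjusted p of 0.0423. It was 0.73 without pargyline (adjusted p 0.244) and 0.81 with it (adjusted p 0.186). The difference kept its direction in all 22 alternatives run, at 0.56 to 0.84, but the adjusted p was above 0.05 in 14 of them, among them every setting that left out 1 array other than C + P replicate 1 or D + P replicate 1, and reached 0.24 with slide column as a block. Over the 7 ventricular cardiomyocyte markers, all well above background on 12 arrays, the mean log2 signal per array was 16.43 to 16.49 (C), 16.31 to 16.53 (C + P), 16.00 to 16.46 (D) and 16.11 to 16.43 (D + P), with 0 markers passing. All but *Ryr2* are very bright probes. Quantile normalisation gives every array the same set of values, which narrows the spread that the mean of such probes can show. *Ryr2*, the calcium release channel and 1 of these markers, stood at 13.44, 13.81 and 13.54 in C and at 11.83, 12.99 and 12.62 in D, with groups that did not overlap in either pair and an averaged difference of -0.98 (limma adjusted p 0.141). The part of cell makeup in the *Kcnip2* difference was not tested.

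**Figure D3:**
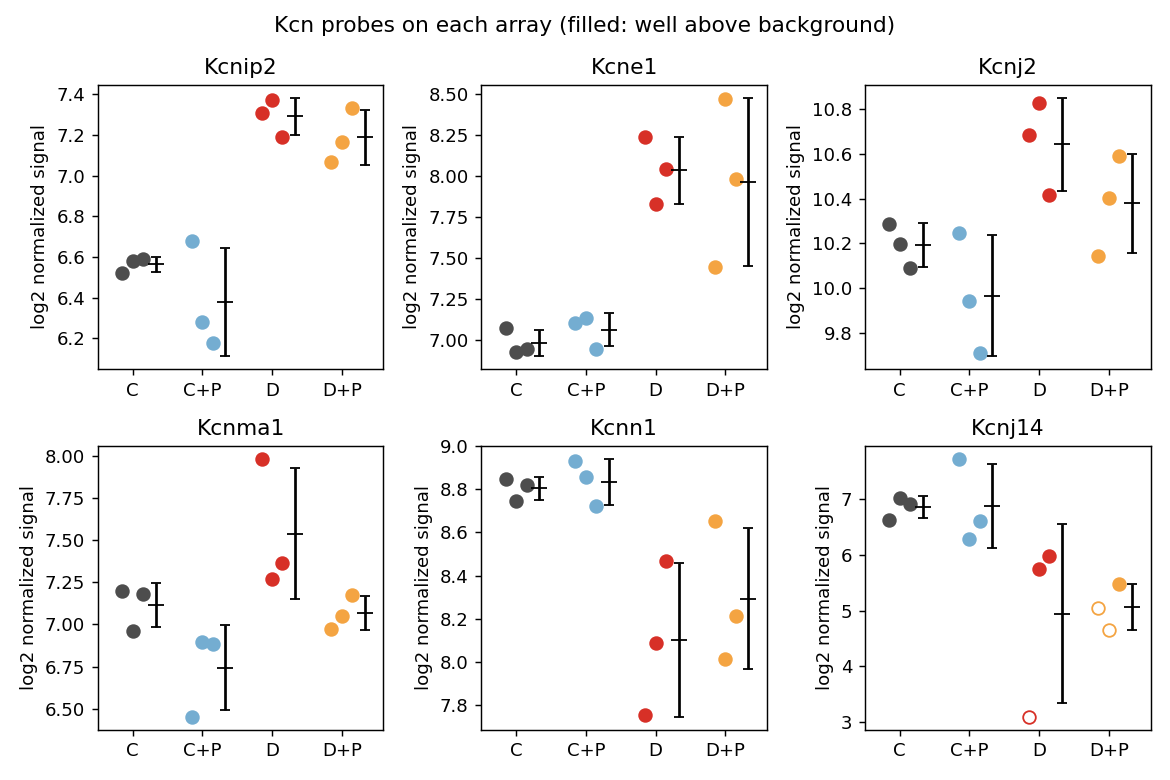
Normalised log2 signal (vertical axes, each with its own range) of 6 Kcn probes on each array, with groups on the horizontal axes; filled points are well above background, open points are not, and black bars give the mean ± SD of 3 arrays. For *Kcnip2* and *Kcne1* every diabetic heart lies above every non-diabetic heart, and for *Kcnj14* and *Kcnn1* every diabetic heart lies below.

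The differences of the pores that KChIP2 serves lay near 0. *Kcnd2*, the Kv4 pore of the epicardial side of the mouse ventricle, had 9.12, 8.72 and 8.80 in C and 8.66, 9.28 and 8.80 in D. With pargyline its signals were 8.95, 8.67 and 8.03 in C + P and 8.58, 8.32 and 8.64 in D + P. D overlapped C and D + P overlapped C + P, and the averaged difference was -0.004 on the log2 scale with a 95% interval of -0.40 to 0.39. *Kcnd3*, the second Kv4 pore of the heart, gave 0.03 (-0.21 to 0.26), and *Kcnd1*, a Kv4 pore better known from other tissues, 0.24 (-0.06 to 0.53). The other KChIP genes gave -0.12 for *Kcnip1* and -0.19 for *Kcnip3*. Over the 6 Ito,f probes the median averaged difference was 0.01, with 3 higher and 3 lower. Whether *Kcnip2* differed more than the others was not tested.

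Stretches upstream of the start of *Kcnip2* and of both pores it serves are shown because *Kcnip2* rose while the intervals of *Kcnd2* and *Kcnd3* hold 0. They are the 250 bases before the annotated start in RefSeq (GRCm38.p6), read 5′ to 3′ on the strand of the gene, and 72 of the 98 Kcn genes had an entry in that table. Capitals mark CACCC on either strand (GGGTG on the other), the box that Krüppel-like factors bind and for which *Klf15*, a regulator of *Kcnip2* in mouse heart, is known. The *Kcnip2* stretch lies at chr19:45816064-45816313 (minus strand), that of *Kcnd2* at chr6:21215096-21215345 (plus strand) and that of *Kcnd3* at chr3:105451640-105451889 (plus strand).
Kcnip2: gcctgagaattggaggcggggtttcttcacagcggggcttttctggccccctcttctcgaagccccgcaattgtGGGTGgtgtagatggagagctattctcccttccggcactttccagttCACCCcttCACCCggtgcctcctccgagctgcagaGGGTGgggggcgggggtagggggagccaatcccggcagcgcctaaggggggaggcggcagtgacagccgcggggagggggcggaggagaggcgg
Kcnd2: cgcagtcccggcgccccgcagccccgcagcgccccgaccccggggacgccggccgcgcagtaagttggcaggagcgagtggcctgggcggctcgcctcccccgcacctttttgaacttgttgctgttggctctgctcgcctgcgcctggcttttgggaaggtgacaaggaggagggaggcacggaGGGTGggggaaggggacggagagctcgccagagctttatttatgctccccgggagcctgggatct
Kcnd3: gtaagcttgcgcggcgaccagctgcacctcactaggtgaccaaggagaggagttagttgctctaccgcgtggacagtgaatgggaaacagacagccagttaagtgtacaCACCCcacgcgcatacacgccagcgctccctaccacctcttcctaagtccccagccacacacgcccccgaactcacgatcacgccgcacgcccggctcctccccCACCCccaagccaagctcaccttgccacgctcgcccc

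The box occurred 4 times in the *Kcnip2* stretch, 2 times on each strand, 1 time in that of *Kcnd2* and 2 times in that of *Kcnd3*. At least 1 box was present in 52.0% of all 32851 promoter stretches of this length and in 74.2% of the 97 Kcn stretches. Stretches with 4 or more made up 2.14% of all and 9.28% of the Kcn stretches. These matches are descriptions of letters, not of binding sites. The *Klf15* probe itself differed by 0.29 on the log2 scale in the averaged comparison (limma adjusted p 0.474), higher in the diabetic groups. Any part of *Klf15* or of these boxes in the *Kcnip2* difference was not tested.

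Among the delayed rectifier genes *Kcne1* had, in the averaged comparison, the largest positive difference of the Kcn probes well above background on at least 6 arrays. It encodes the small KCNE1 protein that, joined to the KCNQ1 pore, slows its opening and makes the current IKs. Its probe (chr16:92348745-92348804, mm9, minus strand) gave 7.07, 6.92 and 6.94 in C and 8.24, 7.83 and 8.04 in D. With pargyline it gave 7.10, 7.13 and 6.94 in C + P and 7.44, 8.47 and 7.98 in D + P. All diabetic hearts stood above all non-diabetic hearts, with D + P replicate 1 the nearest to them.

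The averaged difference of *Kcne1* was 0.98 on the log2 scale (SE 0.16, 95% interval 0.62 to 1.34), a 1.97-fold higher signal (1.53 to 2.54), and its limma adjusted p of 0.0663 missed the threshold. It was 1.06 without pargyline (adjusted p 0.237) and 0.91 with it (adjusted p 0.347). The difference kept its direction in all alternatives run, at 0.86 to 1.11. It passed without D + P replicate 1 (limma adjusted p 0.0168), where only probes well above background were tested (0.0332) and with array weights (0.0127). In the other 19 alternatives it did not pass, and the adjusted p reached 0.29 with slide column as a block. *Kcnq1*, the pore that KCNE1 joins, differed by 0.01 (95% interval -0.37 to 0.39) by its brightest probe and by -0.007 by a second one that overlaps it. *Kcnh2*, the pore of IKr, differed by 0.03 by its brightest probe and by 0.31 by its second probe, with adjusted p of 0.946 and 0.673.

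The inward rectifier genes, which hold the resting potential, had differences of either sign, and none passed. *Kcnj2*, the main Kir2 pore of ventricular myocytes, gave 10.29, 10.20 and 10.09 in C and 10.69, 10.83 and 10.42 in D. With pargyline it gave 10.25, 9.94 and 9.71 in C + P and 10.14, 10.40 and 10.59 in D + P. D did not overlap C, whereas 1 D + P heart lay below the highest C + P heart. The averaged difference was 0.43 on the log2 scale (95% interval 0.14 to 0.73), a 1.35-fold higher signal, with an unadjusted p of 0.00841 and a limma adjusted p of 0.274. A second probe of *Kcnj2* gave 0.48 with an adjusted p of 0.355, and both probes were higher in the diabetic groups in each pair.

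*Kcnj14*, a Kir2 gene better known from brain, had the largest negative averaged difference of the tested Kcn probes with the processing reported here. With 75th percentile scaling *Kcnk2* was lower still, at -1.78 against -1.72. The *Kcnj14* value rests on 1 of its 2 probes, since the other was well above background on 1 array. The probe measured (chr7:53071864-53071923, mm9, minus strand) gave 6.63, 7.02 and 6.91 in C and 3.1, 5.75 and 5.98 in D. With pargyline it gave 7.72, 6.29 and 6.61 in C + P and 5.05, 4.65 and 5.48 in D + P. Every diabetic heart lay below every non-diabetic heart, and the probe was well above background on 3 arrays of C, 3 of C + P, 2 of D and 1 of D + P, so that the low values are near the limit of the array. The averaged difference was -1.86 (SE 0.47, 95% interval -2.89 to -0.83), with an adjusted p of 0.195 in limma, and it was -0.84 with normexp background correction. For D against C it was -1.91 and shrank to -0.99 without D replicate 1, the lowest array.

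The remaining IK1 genes had averaged differences near 0. *Kcnj12*, the second Kir2 pore of the ventricle, differed by 0.008 (95% interval -0.27 to 0.29) by its brightest probe and by 0.18 by another. On that other probe C replicate 1 and D + P replicate 1 stood at 9.24 and 9.22, below the other arrays, which lay between 10.22 and 10.57. *Kcnj4* gave 5.25, 5.28 and 5.45 in C and 5.67, 5.84 and 6.79 in D, and 5.01, 5.65 and 5.31 in C + P and 5.19, 5.34 and 3.71 in D + P. Its difference was 0.78 for D against C and -0.58 for D + P against C + P, and both 95% intervals hold 0. The former was 0.43 without D replicate 3 and 0.29 with normexp, and the latter was -0.058 without D + P replicate 3, which was not well above background.

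None of the genes of the KATP and IKACh currents passed. *Kcnj11*, the KATP pore of ventricular myocytes, had 8.58, 8.59 and 8.48 in C and 8.72, 8.91 and 8.76 in D, with the groups apart, and an averaged difference of 0.28 (95% interval -0.02 to 0.58). *Kcnj8*, the KATP pore of vascular muscle, differed by 0.17 on average, and by 0.14 to 0.37 over the alternatives run. It gave 11.49, 11.68 and 11.44 in C + P and 11.74, 11.91 and 11.93 in D + P, which did not overlap, with a difference of 0.32 (limma adjusted p 0.656), against 0.01 for D against C. *Abcc9* and *Abcc8*, the sulphonylurea receptors that complete these channels, differed by -0.59 (adjusted p 0.354) and 0.01 for D against C, and by 0.05 and 0.29 for D + P against C + P.

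*Kcnj3* and *Kcnj5*, the pores of the acetylcholine-activated current of atria and nodes, differed by -0.02 and 0.22 on average, and *Kcnj9*, which is mainly neuronal, by -0.04. Atrial RNA could carry these genes, so the atrial markers bear on them. Of 5 atrial markers *Sln* and *Bmp10* were well above background on 0 of 12 arrays, *Myl7* on 4, and *Myl4* and *Nppa* on 12, and their mean log2 signal was 6.34 to 6.87 (C), 6.70 to 7.00 (C + P), 6.95 to 7.36 (D) and 6.39 to 6.92 (D + P). *Nppa*, which ventricles also make under load, had an averaged difference of 1.22 (limma adjusted p 0.055), *Myl4* of -0.31 and *Myl7* of -0.05. The last was 0.94 for D against C and -1.04 for D + P against C + P. The part of atrial tissue in the IKACh values was not tested.

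For the slowly inactivating and Shaker-type currents no probe passed. *Kcna5* gave 7.94, 8.27 and 8.35 in C and 8.03, 7.01 and 8.33 in D, which overlapped, and its averaged difference was -0.28 (95% interval -0.84 to 0.27, limma adjusted p 0.698). It was -0.089 without D replicate 2, -0.13 with slide column as a block and -0.64 with array weights. *Kcna6*, a Kv1 pore chiefly of neurons, differed by 0.81 on average (95% interval 0.17 to 1.45, adjusted p 0.349), and by 0.40 with normexp and 0.52 with array weights. D + P, at 7.33, 7.40 and 6.94, stood above C + P, at 5.57, 6.39 and 6.82, whereas C and D overlapped. The other *Kcna6* probe was well above background on 0 arrays. *Kcna7*, the Kv1 pore of muscle, differed by 0.11, and *Kcna1*, chiefly neuronal, by -0.25 (95% interval -1.13 to 0.63). *Kcna4* had a difference of 1.01, but with 0 arrays well above background its signal lies near the floor of the array.

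Of the K2P genes *Kcnk3*, which encodes the acid-sensitive channel TASK-1, gave 11.10, 11.10 and 11.16 in C and 11.25, 11.45 and 11.46 in D. It gave 11.28, 10.94 and 10.66 in C + P and 11.07, 11.36 and 11.26 in D + P. D did not overlap C and the groups with pargyline did, and the averaged difference of 0.27 had a 95% interval of -0.01 to 0.54. *Kcnk2*, which encodes the stretch-activated channel TREK-1, had the widest spread between mice of a group among the genes named. Its signals were 7.79, 3.88 and 8.46 in C and 4.57, 3.37 and 7.43 in D, and 7.63, 8.63 and 9.20 in C + P and 3.09, 9.14 and 7.29 in D + P, so that single groups spanned from below background to well above it. Its averaged difference of -1.78 had a 95% interval of -4.31 to 0.74 and was -0.93 without D + P replicate 1, -0.83 with normexp and -0.49 with values not positive and significant set to missing. The remaining K2P genes measured gave 0.09 for *Kcnk4*, -0.18 for *Kcnk6* and -0.53 for *Kcnk13*, whose 95% intervals all hold 0. The value for *Kcnk13* was -0.20 with normexp and -0.12 with values not positive and significant set to missing.

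Among the calcium-activated channels *Kcnn1* and *Kcnma1* differed in opposite directions. *Kcnn1*, a small-conductance channel opened by calcium through calmodulin, gave 8.85, 8.74 and 8.82 in C and 7.75, 8.09 and 8.47 in D by its brightest probe (chr8:73367057-73367116, mm9, minus strand). With pargyline it gave 8.93, 8.86 and 8.72 in C + P and 8.65, 8.02 and 8.21 in D + P. All diabetic hearts lay below all non-diabetic hearts, and the averaged difference was -0.62 (SE 0.15, 95% interval -0.95 to -0.29), a 1.54-fold lower signal with a limma adjusted p of 0.18, and -0.41 with normexp. A second probe of *Kcnn1* gave -0.32 (adjusted p 0.401), with overlapping groups.

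*Kcnma1*, the large-conductance channel, was measured by 1 of its 6 probes, the others being well above background on 0 arrays, and gave 7.20, 6.96 and 7.18 in C and 7.98, 7.27 and 7.36 in D, and 6.45, 6.89 and 6.88 in C + P and 6.97, 7.05 and 7.17 in D + P. The diabetic hearts stood above the others in both pairs, by 0.37 on average (95% interval 0.05 to 0.70, adjusted p 0.391 in limma), and by 0.21 with normexp and 0.24 with array weights. Vascular muscle is rich in this channel, and the 6 smooth muscle and pericyte markers had mean log2 signals of 9.55 to 9.84 (C), 9.24 to 10.04 (C + P), 9.29 to 9.64 (D) and 9.69 to 9.96 (D + P), with 5 of 6 well above background on all arrays. Their part in the *Kcnma1* difference was not tested. *Kcnn2*, the small-conductance channel best known from atrium, differed by 0.04, and *Kcnt2*, a sodium-activated channel, by -0.16.

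Among the 6 measured genes of the remaining channel families the averaged differences ranged from -0.25 for *Kcnq5* to 0.31 for *Kcnh4*, and the modifier subunits *Kcng2* and *Kcns1* were at 0.14. The value for *Kcnq5* rests on 1 of its 5 probes, since the other 4 were well above background on 0 or 1 array. None of these probes passed, and *Kcnh4* alone had an unadjusted p under 0.05, at 0.0232 (limma adjusted p 0.369).

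Differences with and without pargyline are given side by side in the plot of both diabetes comparisons, which share no array. *Kcnip2*, *Kcne1*, *Kcnma1*, *Kcnj14* and *Kcnn1* had groups that did not overlap in both, in the same direction. The interaction, which is the diabetes difference with pargyline minus that without it, tests whether these differ. It was called for 0 of the 74 Kcn probes in limma and for 0.00648% of all probes, and 5 Kcn probes had an unadjusted p under 0.05, 6.76% beside 7.03% of all probes. For *Kcnip2*, *Kcne1*, *Kcnj14* and *Kcnn1* it was not among those 5.

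**Figure D4:**
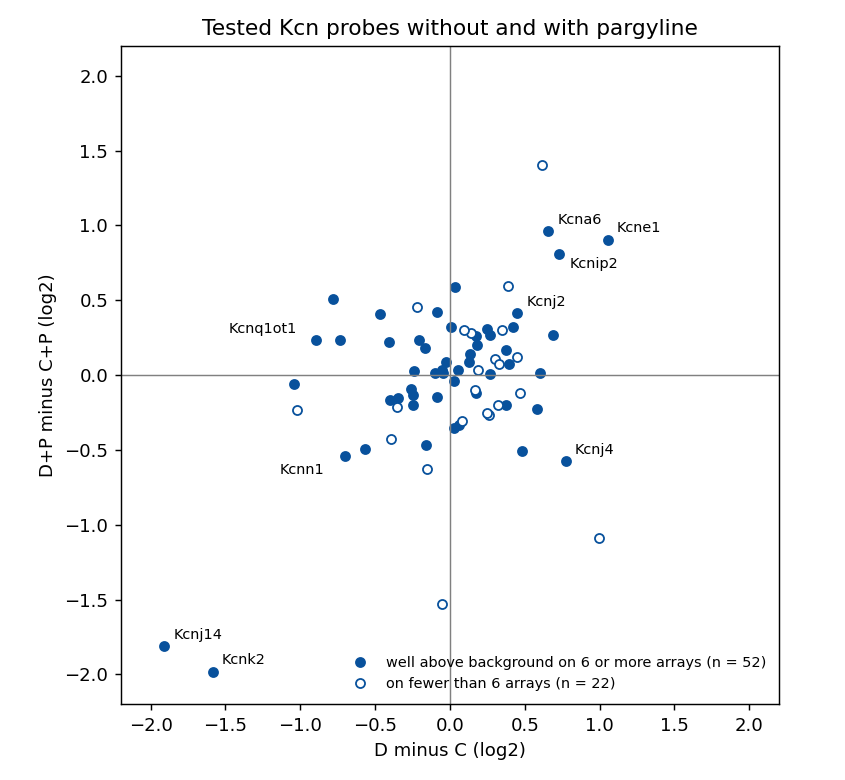
Difference of D from C (horizontal axis) against that of D + P from C + P (vertical axis), both on the log2 scale, for the 74 tested Kcn probes; filled points were well above background on at least 6 arrays and open points on fewer. *Kcne1*, *Kcnip2* and *Kcna6* lie at the upper right, *Kcnj14* and *Kcnk2* at the lower left, and *Kcnj4* and the labelled, brightest *Kcnq1ot1* probe have differences of opposite sign.

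Among probes well above background on at least 6 arrays, the 3 largest positive interaction values were those of *Kcnq1ot1* probes, and the largest negative ones those of *Kcnj4* (-1.35, limma adjusted p 0.709) and *Kcnj3* (-0.99), for which D + P replicate 3 was the lowest array, at 3.71 and 6.21. Without that array the values were -0.83 and -0.49, and without C replicate 1 that of *Kcnj3* was -0.61. *Kcnk15*, well above background on 4 arrays, gave -2.09. *Kcnq1ot1* is no channel subunit but the long non-coding RNA that starts within the *Kcnq1* gene and silences neighbouring genes on the paternal chromosome. Of the 5 *Kcnq1ot1* probes 4 were tested and had interactions of 1.29, 1.13, 0.99 and 0.88, with limma adjusted p no lower than 0.673. Without D replicate 3 the value of 0.99 was 0.26, and with normexp that of 1.29 was 0.75. On the brightest (chr7:150409006-150409065, mm9, minus strand) C had a mean of 13.09 ± 0.11 (SD, n = 3), and D had 12.75, 12.34 and 11.47. C + P had 12.59, 12.87 and 13.22, and D + P had 13.41, 12.98 and 12.99. D lay below the 3 other groups except for C + P replicate 1, and D replicate 3 was lowest on each of the 4 probes. The difference of D from C was -0.90 (adjusted p 0.357) and shrank to -0.54 without D replicate 3. *Kcnq1*, within which it starts, stood at -0.21 for D against C and 0.23 for D + P against C + P.

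The effect of pargyline was compared within diabetes (D + P against D), without diabetes (C + P against C) and over both, and slide cannot be told apart from pargyline in each. In limma 0 of 74 Kcn probes passed in any of them, where 0.0324% of all probes passed for C + P against C, 0% for D + P against D and 0.0551% over both. At an unadjusted p under 0.05 there were 0 Kcn probes for C + P against C (all probes 4.43%), 8 for D + P against D (10.8%, all probes 13.3%) and 6 over both (8.11%, all probes 10.2%). The methods' t-test called 0 Kcn probes in either pair after each of those adjustments, and 1 of all probes in each pair. Unadjusted, it called 4 for C + P against C (5.41%, all probes 7.69%) and 2 for D + P against D (2.7%, all probes 8.34%).

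Within diabetes, differences whose groups did not overlap included those of *Kcnj4* and *Kcnh4*, lower in D + P, and of *Kcnq1ot1*, higher in D + P. For *Kcnj4* the difference was -1.36 on the log2 scale, but only 2 arrays of D and 1 of D + P were well above background, and it was -0.84 without D + P replicate 3. *Kcnh4*, a pore of the ether-à-go-go family, stood at 8.73, 8.30 and 8.41 in D and at 7.71, 7.92 and 7.81 in D + P, a difference of -0.67 (limma adjusted p 0.18), with C at 7.96, 7.80 and 7.87. A second *Kcnh4* probe gave -0.23, with overlapping groups. The brightest *Kcnq1ot1* probe differed by 0.94 and another by 0.88, with adjusted p of 0.244 and 0.285, and by 0.58 and 0.49 without D replicate 3. These values share their D arrays with D against C and are not independent of them.

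**Figure D5:**
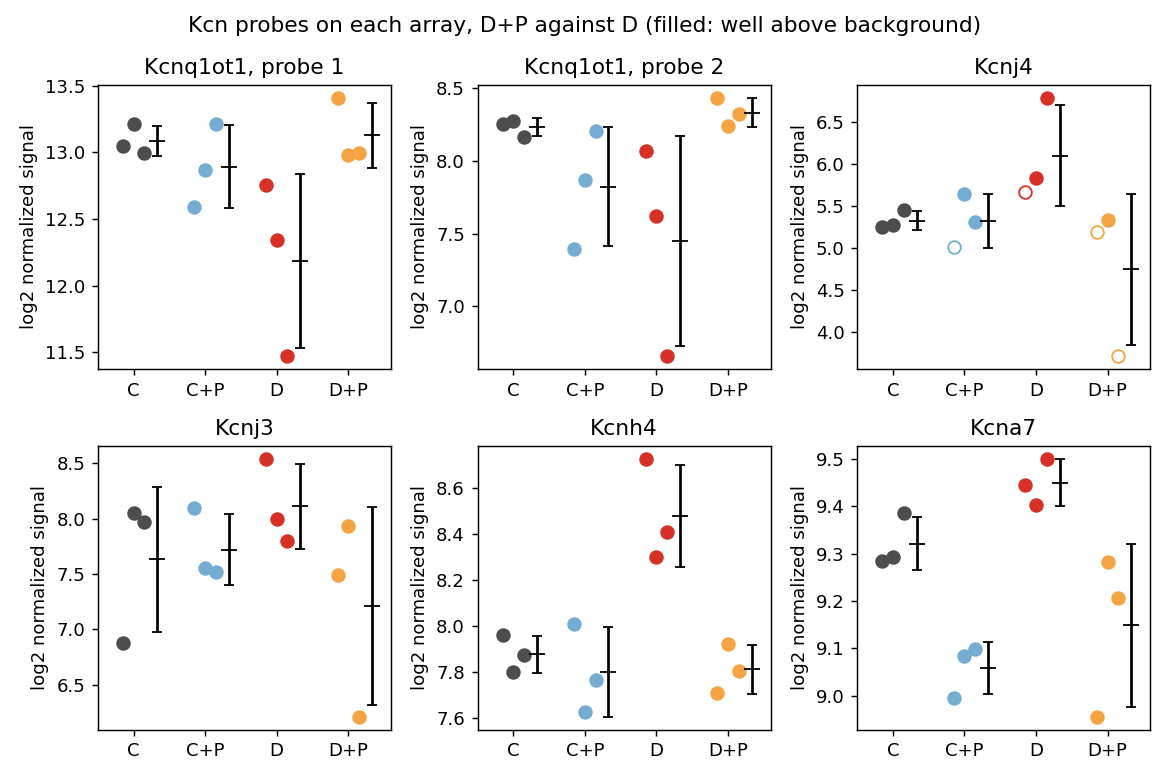
Normalised log2 signal (vertical axes, each with its own range) of 6 Kcn probes on each array, with groups on the horizontal axes; filled points are well above background, open points are not, and black bars give the mean ± SD of 3 arrays. D stands above the other groups for *Kcnh4*, both pargyline groups lie below the group without it for *Kcna7*, and D replicate 3 is the lowest array for both *Kcnq1ot1* probes.

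Over both comparisons *Kcnma1* (-0.42), *Kcng2* (-0.40) and *Kcna7* (-0.28) were lower with pargyline, with groups that did not overlap in either pair and limma adjusted p of 0.390, 0.392 and 0.371. The difference of *Kcnma1* was -0.26 with array weights and -0.28 with normexp background correction. *Kcna7* stood at 9.29, 9.29 and 9.39 in C and at 8.99, 9.08 and 9.10 in C + P, with D at 9.45, 9.40 and 9.50 and D + P at 8.96, 9.28 and 9.21. In C + P against C the second probe of *Kcnh2* was also apart, at -0.46, and at -0.20 with slide column as a block.

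The partners and regulators of these channels that carry other names gave no call either. Of 16 such genes 11 were well above background on all 12 arrays, 13 were tested, and 0 passed in limma in any of the 7 comparisons. At an unadjusted p under 0.05 for D against C *Irx3* was higher and *Abcc9* lower. *Irx3*, a transcription factor of the ventricular conduction system, stood at 10.24, 10.71 and 10.77 in C and at 12.05, 11.51 and 11.47 in D, which did not overlap, a difference of 1.11 (adjusted p 0.277). With pargyline it differed by 0.45. *Irx5*, which represses *Kcnd2* across the mouse ventricular wall, differed by 0.50 for D against C, with an unadjusted p of 0.283. *Hcn2* and *Hcn4*, the pacemaker channels, differed by 0.03 and 0.17 in the averaged comparison.

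Marker genes of other cell types in the heart also had 0 calls in any comparison. Endothelial markers were well above background on all 12 arrays for 5 of 5 genes, fibroblast markers for 5 of 5, immune markers for 4 of 5 and erythroid markers for 3 of 3. Of the neuronal and glial markers, which bear on Kcn genes known from neurons, 2 of 6 were. Their mean log2 signal was 7.93 to 8.12 (C), 7.41 to 7.97 (C + P), 7.90 to 8.04 (D) and 7.87 to 8.23 (D + P). Adipocyte markers were on 0 arrays for 3 of 3 genes, and of the skeletal muscle markers 1 of 4 was on all 12. Of the markers outside the ventricular cardiomyocyte list, 3 had groups that did not overlap, in the same direction, in both diabetes pairs. The averaged difference was 0.43 for *Lum*, a fibroblast matrix gene (limma adjusted p 0.248), 0.32 for *Uchl1*, a neuronal ubiquitin hydrolase (0.315), and -0.49 for *Cd68*, a macrophage gene (0.268). *Snap25*, a synaptic gene, was apart in D against C, at -0.59 (limma adjusted p 0.403), and overlapped between D + P and C + P. Their part in the Kcn differences was not tested.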

How the data were processed

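Messenger RNA of 12 hearts was measured, 3 per group. The authors labelled 200 ng of RNA with Cy3, hybridised it to single-colour Agilent arrays and extracted spots with Feature Extraction (12.0.0.7 per the file headers, another version in the methods). The deposited intensity is linear and corrected for background within each array. The deposited series table holds intensity that the authors had quantile normalised, and serves as an alternative.

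Intensity was log2 transformed and quantile normalised between arrays; control and outlier spots were left out and repeated spots averaged. Probes with positive and significant signal on 50% or more of each group's arrays were tested in limma 3.58.1 (R 4.3.3; 8 residual and 2.62 prior degrees of freedom), two-sided, with Benjamini-Hochberg adjustment over 30857 probes. The fit was tested on simulated data. Figures used Python 3.11.15, pandas 2.3.3 and matplotlib 3.10.9. Positions are mm9, as in the files; upstream stretches are from RefSeq, GRCm38.p6.

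A gene is given by its brightest probe. Named are genes well above background on at least 6 arrays, with values for the cardiac current types, and per comparison the 3 largest rises and falls with groups that did not overlap. The members and lists were chosen with earlier results of these data known. Some items withheld for evaluation are not reported here.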

Additional observations from a re-analysis of the deposited data

How the results depend on the processing

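The count of Kcn probes called for diabetes averaged over pargyline, 1 as reported, depended on the processing. It was 0 with normexp background correction, 0 with no filter on dim probes, 0 with slide column as a block, 2 where only probes well above background on 50% or more of each group's arrays were tested, and 4 with array weights. Leaving out 1 array at a time gave 0 to 2: 2 without D + P replicate 1, 1 without C + P replicate 1 and 0 without any other. Array weights gave 2 calls for D against C and 1 for D + P against C + P. The replicate block gave 0 calls in the averaged comparison and changed no other count; the replicate numbers did not pair the samples, since 4 of 18 same-numbered pairs of arrays deviated together with a correlation above 0.1 (range -0.204 to 0.2), beside 8 of 36 pairs of other numbers. Over all probes the averaged comparison called 33 as reported, 348 with array weights, 67 and 16 with the stricter filter and none, 3 with slide column and 4 with the replicate number as a block, and 3 to 116 without 1 array. The cause was not tested. Counts stayed the same in 133 cases and moved in 19.

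For single probes in the averaged comparison, signs turned in the following settings. With 75th percentile scaling the log2 differences were -0.010 for *Kcnq1* and -0.013 for *Kcnj12*. With normexp they were -0.13 for *Kcnj12*, -0.017 for *Kcna7*, 0.18 for *Kcnd2*, -0.044 for *Kcnh2*, -0.087 for *Kcnk4*, 0.086 for *Kcnj9* and 0.025 for *Kcnt2*. With array weights they were -0.098 for *Kcnq1*, 0.10 for *Kcnd2* and 0.003 for *Kcnj3*. Without 1 array at a time the ranges were -0.055 to 0.105 for *Kcnj12*, -0.134 to 0.095 for *Kcnd2*, -0.019 to 0.074 for *Kcnd3*, -0.20 to 0.24 for *Kcnj3*, -0.022 to 0.119 for *Kcnh2*, -0.30 to 0.24 for *Kcnj9*, -0.102 to 0.089 for *Kcnq1*, -0.073 to 0.359 for *Kcnj4*, -0.508 to 0.023 for *Kcna1*, -0.038 to 0.098 for *Kcnn2*, -0.398 to 0.07 for *Kcnip3*, -0.029 to 0.217 for *Kcnk4* and -0.34 to 0.13 for *Kcnt2*. Of the values for single probes 1221 kept direction and side of the threshold. Dim signal limits *Kcnj14*, *Kcnj4*, *Kcnk2* and *Kcnk13*.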
